A study of Homo sapiens with 3 samples.

Results

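CYR61, FJX1, FOSL1, IER5, PHLDA1, DUSP5, DUSP6, EGR1, CCND1 and MYC are response genes of the YAP, AP-1 and ERK pathways, and their counts were followed in 22Rv1, a human prostate cancer cell line. The 10 genes were taken by symbol, with CYR61 standing for the gene now named CCN1, and all 10 were present among 15488 symbols in the table. They were chosen by measured values, among them their ratios between the same libraries described here, so their own ratios are a description and support nothing further. Cells of the V4 group received 20 μg of a plasmid with transcript V4 of MLPH for 48 h, and those of the V1 group received 20 μg of a plasmid with transcript V1 for 48 h. MLPH encodes melanophilin, an adaptor between a Rab GTPase and a myosin motor in vesicle transport. An empty-vector sample belongs to the same experiment, but the name of the third count column (columns not used: 1) matches no sample alone, so that group was not analysed here. Poly(A) RNA was sequenced, and each value counts the reads of a gene symbol. With 1 library in each group, no difference could be checked in a replicate or tested over samples. Intervals are 95% exact intervals of counting error and leave out variation between cultures, transfections and library preparations.

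YAP and its paralogue TAZ are co-activators that the Hippo kinases hold in the cytoplasm. When the kinases are inactive they enter the nucleus, bind TEAD factors and switch on genes such as CYR61 and CTGF. AP-1 is a dimer of FOS and JUN family proteins, and it shares many enhancers with YAP and TEAD. ERK is the last kinase of the RAS, RAF and MEK cascade. Active ERK phosphorylates ternary complex factors at serum response elements, which induces immediate early genes such as EGR1, and later its own inhibitors, among them the DUSP phosphatases. CCND1 and MYC link these pathways to entry into the cell cycle.

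Promoters are shown first for the members with an entry in the RefSeq promoter set used here (build GRCh38.p14), to show which of the searched elements lie near the start. An entry was found for 5 of 10 members: FJX1, IER5, PHLDA1, DUSP6 and EGR1. CYR61, FOSL1, DUSP5, CCND1 and MYC are named only. Each line gives the 250 bases before the annotated start, 5′ to 3′ on the gene's strand, with matches to any searched motif in capitals. The regions are chr11:35618210-35618459 (plus strand) for FJX1, chr1:181088450-181088699 (plus) for IER5, chr12:76031777-76032026 (minus) for PHLDA1, chr12:89352502-89352751 (minus) for DUSP6 and chr5:138465229-138465478 (plus) for EGR1.
FJX1: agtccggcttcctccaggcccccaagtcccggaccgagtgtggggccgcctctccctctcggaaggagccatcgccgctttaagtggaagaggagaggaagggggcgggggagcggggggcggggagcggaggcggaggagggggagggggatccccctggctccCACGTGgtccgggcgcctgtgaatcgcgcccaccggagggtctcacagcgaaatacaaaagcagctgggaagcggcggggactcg
IER5: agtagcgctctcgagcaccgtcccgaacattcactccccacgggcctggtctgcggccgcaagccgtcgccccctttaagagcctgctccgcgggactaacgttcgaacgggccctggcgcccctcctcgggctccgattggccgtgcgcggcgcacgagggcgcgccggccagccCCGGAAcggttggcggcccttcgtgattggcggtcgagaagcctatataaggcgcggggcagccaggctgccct
PHLDA1: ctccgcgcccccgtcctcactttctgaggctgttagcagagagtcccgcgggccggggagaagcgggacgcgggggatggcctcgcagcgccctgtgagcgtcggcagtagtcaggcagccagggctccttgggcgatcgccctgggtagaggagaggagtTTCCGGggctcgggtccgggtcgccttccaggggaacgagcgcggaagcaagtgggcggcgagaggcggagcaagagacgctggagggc
DUSP6: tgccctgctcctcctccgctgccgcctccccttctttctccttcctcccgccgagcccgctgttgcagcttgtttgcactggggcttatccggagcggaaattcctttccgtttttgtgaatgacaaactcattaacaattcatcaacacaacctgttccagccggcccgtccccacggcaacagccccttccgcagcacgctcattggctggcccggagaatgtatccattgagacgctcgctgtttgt
EGR1: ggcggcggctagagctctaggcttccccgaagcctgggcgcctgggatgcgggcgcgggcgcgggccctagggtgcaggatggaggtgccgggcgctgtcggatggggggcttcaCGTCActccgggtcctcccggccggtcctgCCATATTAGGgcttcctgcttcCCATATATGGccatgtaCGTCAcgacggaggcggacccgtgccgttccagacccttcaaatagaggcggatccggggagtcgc

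The search, on both strands, covered 7 patterns. These were the TEAD site GGAATG, the AP-1 site TGANTCA, the cyclic AMP element TGACGTCA and its shorter core CGTCA (which every full element contains), the ETS site CCGGAA, the E-box CACGTG that MYC binds, and the CArG box of the serum response factor. EGR1 had a pair of CArG boxes, at positions -105 to -96 and -83 to -74 from the start, and CGTCA at -135 and -66. Among 35116 RefSeq promoter windows of this length, 1.16% held a CArG box and 21.2% held CGTCA. IER5 had an ETS match at -74 and PHLDA1 had one at -89, on the opposite strand, a pattern found in 14.5% of windows. FJX1 had an E-box at -85, found in 6.34% of windows. DUSP6 had none of the 7 patterns in this window. The TEAD pattern (11.9% of windows), the AP-1 pattern (6.57%) and the full cyclic AMP element (1.65%) matched in none of the 5 windows, which says only that these letters are not in these bases. The 3 promoters of genes that were lower with V4 (FJX1, IER5 and PHLDA1) had no pattern common to all 3.

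The libraries had 9609381 counts (V4) and 9253399 counts (V1), and a gene at 0 counts could still have up to 0.312 CPM (its counts relative to all counts of the library, scaled to a fixed total) with V4 and 0.324 CPM with V1, by counting error alone. MLPH itself had 7773 counts (809 CPM) with V4 and 7219 counts (780 CPM) with V1, a ratio of 1.06 (interval 1.03 to 1.10). Both groups carry an MLPH plasmid, so this value does not check the labels. Of the genes known from luminal prostate cells, some were well counted and others were near 0. KRT8, a luminal keratin, had 1636 counts with V4 and 2085 with V1, and CDH1, E-cadherin, had 8211 with V4 and 6389 with V1. KLK2, a secreted kallikrein, had 13 counts with V4 and 8 with V1, and TMPRSS2, a membrane protease under the filter, had 2 with V4 and 1 with V1. KLK3 and KRT18 were not analysed here. Of 12 markers on that list, 9 passed the filter on low counts, with 0 at least 1.5-fold apart. Of all genes that passed it, 9.59% were at least 1.5-fold lower with V4 and 7.83% higher.

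Of the 10 response genes, 6 were lower with V4, 0 were higher and 4 were neither, at a ratio of 1.5-fold or more. Among all 8840 genes with a mean of at least 1 CPM, 9.59% were at least 1.5-fold lower with V4 and 7.83% at least 1.5-fold higher. At 2-fold the members' count was the same, 6 lower and 0 higher, and the shares of all genes were 4.55% lower and 2.23% higher. All 10 members passed the filter. The ratios chose the members, so the 6 are not read against these shares. For these counts a prior of 2 reads was added before the log2 ratio, so genes with few reads are pulled towards 0. Folds of single genes leave the prior out. The median log2 ratio was -1.07 over the members and -0.00 over all kept genes, and the central 95% of kept genes lay between -1.40 and 0.98.

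**Figure D1:**
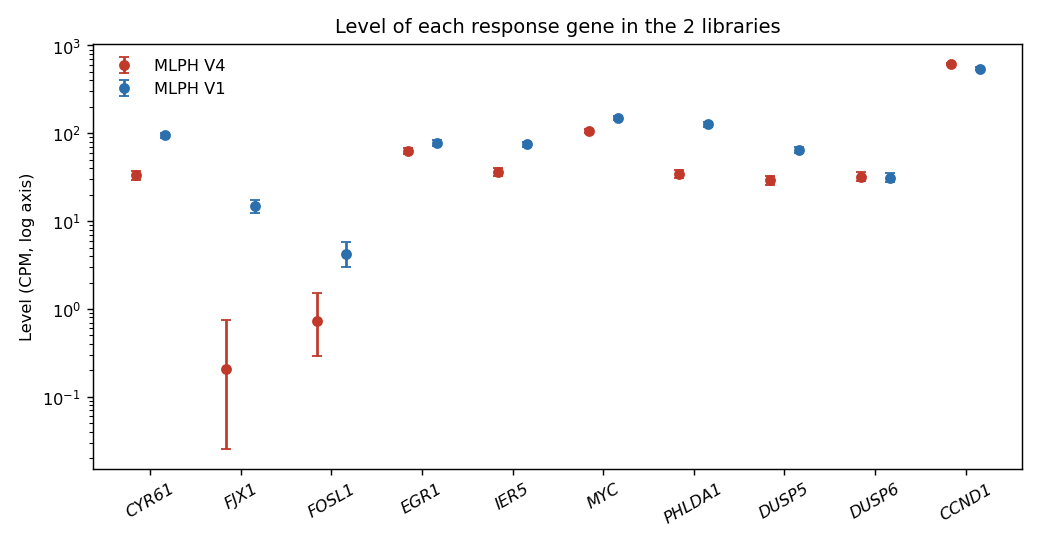
Level of each response gene in the V4 library (red, left) and the V1 library (blue, right), in CPM on a log axis, with bars for 95% exact Poisson intervals of counting error. FJX1 is the most separated pair, at 0.208 CPM with V4 and 14.7 CPM with V1, and the intervals of DUSP6 overlap, at 32.1 CPM with V4 and 31.2 CPM with V1.

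CYR61 and FJX1 stand for the output of YAP. CYR61, a secreted matricellular protein that signals through integrins, had 319 counts (33.2 CPM) with V4 and 874 counts (94.5 CPM) with V1. It was 2.78-fold lower with V4 (interval 2.44 to 3.17). FJX1 is the human relative of Drosophila four-jointed, which in the fly encodes a Golgi kinase that acts on the Fat and Dachsous cadherins upstream of Hippo. It had 2 counts with V4 and 136 with V1, 68.9-fold lower with V4 (interval 18.7 to 575). The width of that interval comes from the 2 counts, and the V4 level of 0.208 CPM lies under the 0.312 CPM that a count of 0 allows.

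EGR1, IER5 and MYC are immediate early genes, as is CYR61, and FOSL1 is described with them. FOSL1, which encodes the AP-1 subunit FRA1, had 7 counts (0.729 CPM) with V4 and 39 counts (4.22 CPM) with V1. It was 5.65-fold lower with V4 (interval 2.5 to 15) and was the least abundant member in the V1 library per length. IER5, a regulator of the heat shock factor HSF1, had 346 counts (36.0 CPM) with V4 and 692 counts (74.8 CPM) with V1, 2.03-fold lower with V4 (interval 1.78 to 2.31). EGR1, the zinc finger factor with the pair of CArG boxes, had 600 counts (62.4 CPM) with V4 and 718 counts (77.6 CPM) with V1. Its ratio of 0.824 (interval 0.738 to 0.920) was under 1 and short of 1.5-fold. MYC, a growth-promoting transcription factor, had 1018 counts (106 CPM) with V4 and 1379 counts (149 CPM) with V1, a ratio of 0.728 (interval 0.671 to 0.790). EGR1 and MYC were thus below 1 beyond counting error, with smaller folds than FOSL1 and IER5.

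PHLDA1, DUSP5, DUSP6 and CCND1 are induced by ERK. PHLDA1, a pleckstrin homology-like protein, had 333 counts (34.7 CPM) with V4 and 1170 counts (126 CPM) with V1. It was 3.56-fold lower with V4 (interval 3.15 to 4.04), and its difference in level, -91.8 CPM, was the most negative of the 10. DUSP5 and DUSP6 encode phosphatases that act on ERK itself, DUSP5 in the nucleus and DUSP6 in the cytoplasm, and the counts set them apart. DUSP5 had 279 counts (29 CPM) with V4 and 601 counts (64.9 CPM) with V1, 2.18-fold lower with V4 (interval 1.89 to 2.53). DUSP6 had 308 counts with V4 and 289 with V1, a ratio of 1.05 whose interval, 0.892 to 1.24, holds 1 and does not reach that of DUSP5. CCND1, which encodes cyclin D1, had 5874 counts (611 CPM) with V4 and 5056 counts (546 CPM) with V1. Its ratio of 1.15 (interval 1.10 to 1.19) was above 1 and short of 1.5-fold.

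**Figure D2:**
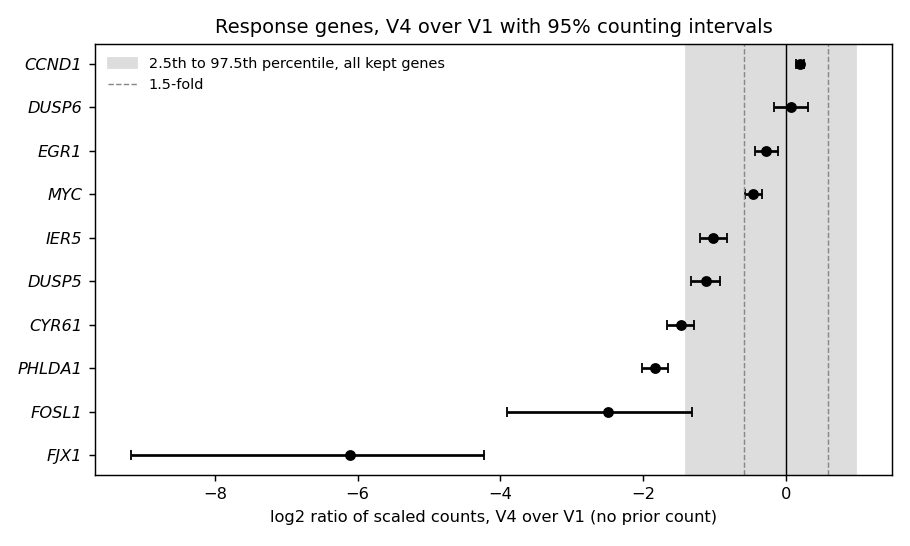
Log2 ratio of scaled counts, V4 over V1 and without a prior count, for each response gene, with bars for 95% exact intervals of counting error. The grey band spans the central 95% of all kept genes on the scale with a prior count (-1.40 to 0.98), and FJX1, FOSL1, PHLDA1 and CYR61 have points below it while the other 6 lie inside.

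Within the distribution of all kept genes, 0.124% had a lower ratio than FJX1, 1.21% than FOSL1, 1.65% than PHLDA1 and 2.30% than CYR61. The shares were 3.56% for DUSP5 and 4.49% for IER5. EGR1 (22.6%), MYC (13.4%), DUSP6 (58.4%) and CCND1 (71.9%) lay in the body of the distribution. Genes with few counts spread more widely by counting error. Among the 5233 genes with a mean of at least 10 CPM, 162 (3.10%) were at least 1.5-fold lower with V4. That level keeps 8 of the members, without FJX1 and FOSL1, and 4 of those 8 were lower. As the members were chosen by their ratios, neither their places in the distribution nor the 4 of 8 are read against these shares.

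**Figure D3:**
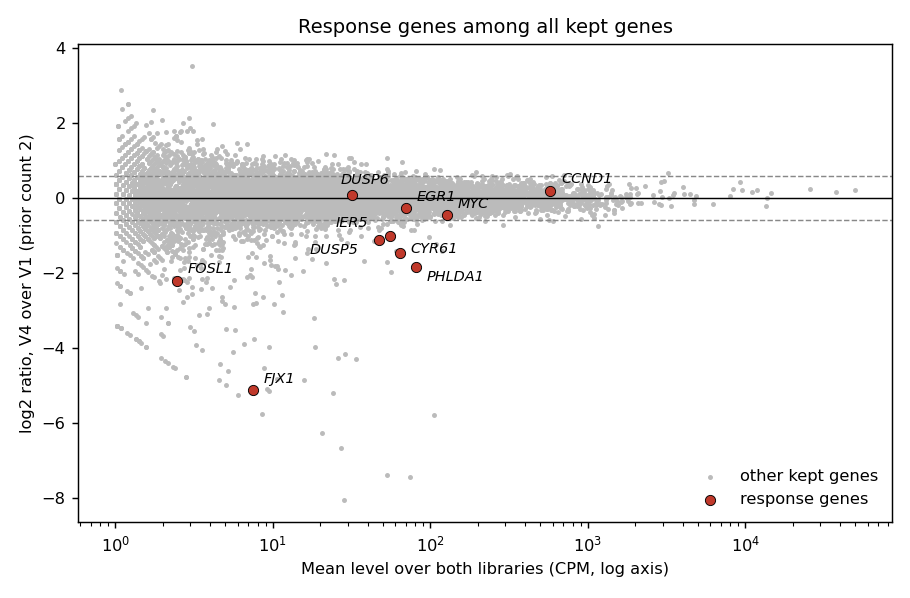
Log2 ratio, V4 over V1 with a prior count of 2, against the mean level over both libraries in CPM (log axis) for 8840 kept genes (grey) and the 10 response genes (red), with dashed lines at 1.5-fold. PHLDA1, CYR61, DUSP5 and IER5 lie below the dashed line at levels where most grey points lie between the lines, and FJX1 and FOSL1 lie among genes with fewer counts.

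Marker lists of other cells went different ways. Their counts stand beside 9.59% of all kept genes at least 1.5-fold lower with V4 and 7.83% higher. On a list of genes that mesenchymal cells and some other prostate cancer lines express, drawn up with the ratios of several of its genes known, 7 of 8 kept genes were at least 1.5-fold lower with V4 and 0 were higher. Its 9 genes with a row summed to 33.8 CPM with V4 and 358 CPM with V1, and 1 of them, CAV2, which was under the filter, was at 0 with V4. LCN2, lipocalin 2, had 6 counts with V4 and 1359 with V1, and ANXA1, annexin A1, had 234 with V4 and 763 with V1. ANXA1 is named after its values were seen. Fibroblast markers had 2 of 3 kept genes lower, and the 6 with a row summed to 5.0 CPM with V4 and 168 CPM with V1. COL1A2 had 4 counts with V4 and 976 with V1, COL3A1 had 0 with V4 and 526 with V1 (at least 178-fold lower with V4, taking 3 counts as the limit that 0 allows in the V4 library), and 4 of the 6 were at 0 with V4. LUM had 44 counts with V4 and 33 with V1. VIM, COL1A1 and DCN, which define such cells, were not analysed here. Basal markers had 2 of 2 kept genes higher with V4, both low in counts. DST, a linker of the cytoskeleton, had 35 counts with V4 and 16 with V1. KRT5, a basal keratin, had 15 with V4 and 8 with V1, where the interval of 0.736 to 5.04 holds 1. KRT5 was under 1 CPM with V1 and passed the filter only through V4. Under the filter, KRT14, another basal keratin, went the other way, with 0 counts with V4 and 4 with V1. KRT15 had 0 counts in both libraries, and TP63 and ITGA6 were not analysed here. The 4 basal markers with a row summed to 5.20 CPM with V4 and 3.03 CPM with V1. Endothelial markers summed to 1.15 CPM with V4 and 0.108 CPM with V1, and none passed the filter. These sums rest on few counts: VWF had 6 with V4 and 0 with V1, and KDR had 5 with V4 and 1 with V1. CDH5 had 0 counts in both libraries, and PECAM1 and TEK were not analysed here. The leukocyte list summed to 17.0 CPM with V4 and 23.9 CPM with V1. Its largest part was HBA1, a haemoglobin gene and not a leukocyte marker, at 9.99 CPM with V4 and 13.5 CPM with V1. CD68 came next, at 6.14 CPM with V4 and 9.29 CPM with V1. PTPRC and CD3E, both under the filter, had 0 counts in both libraries. In bulk RNA, fewer cells of a type and less RNA per cell cannot be told apart. The part of these markers in the lower counts of FJX1, FOSL1, PHLDA1, CYR61, DUSP5 and IER5 was not tested.

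Levels can be set against each other between genes only per length, here CPM per kilobase of the longest GENCODE v29 transcript. The counting method is not given, which limits this: genes with 1 curated RefSeq transcript had a median of 3.85 CPM with V4 and 4.43 CPM with V1, while genes with 5 or more had a median of 1.56 CPM with V4 and 1.73 CPM with V1. CYR61, FJX1, IER5, PHLDA1, DUSP5, EGR1 and CCND1 have 1 such transcript, DUSP6 and MYC have 2 and FOSL1 has 5. CCND1 stood at the top in both libraries, with 142 CPM per kilobase with V4 and 127 with V1, and MYC came next with 44.8 with V4 and 63.0 with V1. With V4 the order went on through EGR1 (19.9), CYR61 (14.5), DUSP5 (11.4), IER5 (8.60), DUSP6 (7.28), PHLDA1 (4.29), FOSL1 (0.437) and FJX1 (0.085). Neighbours whose counting intervals overlap there are IER5 with DUSP6, and FOSL1 with FJX1. With V1 the order after MYC was CYR61 (41.2), DUSP5 (25.4), EGR1 (24.7), IER5 (17.9), PHLDA1 (15.7), DUSP6 (7.10), FJX1 (6.0) and FOSL1 (2.53). Intervals of neighbours overlap there for DUSP5 with EGR1, IER5 with PHLDA1, and DUSP6 with FJX1. EGR1 thus ranked above CYR61 and DUSP5 with V4 and after both with V1, where its interval overlapped that of DUSP5.

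Most of the genes have few exons, a property not used to choose them. FJX1 and IER5 have 1 exon in their longest GENCODE v29 transcript, PHLDA1 and EGR1 have 2, DUSP6 and MYC have 3, FOSL1 and DUSP5 have 4, and CYR61 and CCND1 have 5. The median was 3 exons over the members and 7 over kept genes with an annotated transcript, of which 31.2% have 4 exons or fewer, as 8 of the 10 members do. The median transcript length was 2848 bases over the members and 3386 over kept genes, with 4 of the 10 members longer than the kept-gene median, and the median GC content was 52.1% over the members and 49.0% over kept genes. The lower genes span this range: PHLDA1, at 8069 bases and 44.3% GC, was the longest and least GC-rich member, and FJX1, at 2450 bases and 63.8% GC, was the most GC-rich.

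The wider YAP and TAZ target list had 15 kept genes of 24, with 6 at least 1.5-fold lower with V4, 0 higher and 9 neither, beside 9.59% lower among all kept genes. Its median log2 ratio was -0.43, beside -0.00 for all kept genes. Leaving out CYR61 and FJX1, 4 of 13 were lower and the median was -0.39. NT5E, the ecto-enzyme CD73, had 9 counts with V4 and 39 with V1, 4.39-fold lower with V4 (interval 2.09 to 10.3). ARHGEF17, a guanine nucleotide exchange factor, had 25 counts with V4 and 51 with V1, 2.07-fold lower with V4 (interval 1.26 to 3.48). AJUBA (131 counts with V4 and 200 with V1) and F3, the tissue factor gene (20 counts with V4 and 36 with V1), complete the 4 and are named after their values were seen. So are CTGF and ANKRD1, the most used reporters of YAP activity with CYR61, which were neither: CTGF had 139 counts with V4 and 190 with V1, 1.39-fold lower with V4 (interval 1.11 to 1.74), and ANKRD1 had 360 with V4 and 479 with V1, 1.35-fold lower (interval 1.17 to 1.55). GADD45B, the target with the most counts, had 1927 counts with V4 and 2291 with V1, a ratio of 0.830 (interval 0.780 to 0.882).

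Of 17 genes of the Hippo kinases, their partners, YAP, TAZ and the TEAD factors, 8 were kept. Of these, 0 were at least 1.5-fold apart, beside 9.59% lower and 7.83% higher among all kept genes. The median log2 ratio was 0.12. The kinase LATS1 had 1957 counts with V4 and 1712 with V1, a ratio of 1.13 (interval 1.06 to 1.20). TEAD3, a DNA-binding partner of YAP, had 149 counts with V4 and 202 with V1, a ratio of 0.728 (interval 0.585 to 0.904). YAP1 and WWTR1, the genes of YAP and TAZ themselves, were not analysed here. Neither were STK3, STK4, LATS2, NF2, WWC1 and AMOT, so LATS1 is the only kinase among the 8 kept genes.

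Among AP-1 subunits, 1 of 6 kept genes, FOSL1, was at least 1.5-fold lower with V4 and 0 were higher. The shares of all kept genes were 9.59% lower and 7.83% higher. All 6 subunit genes had a log2 ratio below 0, with a median of -0.44. JUND had 1461 counts with V4 and 1979 with V1, a ratio of 0.728 (interval 0.680 to 0.780). FOS had 287 counts with V4 and 380 with V1, a ratio of 0.745 (interval 0.637 to 0.871), and JUN, the subunit gene with the most counts, had 2946 with V4 and 3393 with V1, a ratio of 0.856 (interval 0.815 to 0.900). The 17 kept immediate early genes had 3 lower, 0 higher and 14 neither, with a median of -0.31, beside 9.59% lower among all kept genes. Besides CYR61 and IER5 the third was IER3, a stress-induced survival gene, with 29 counts with V4 and 598 with V1, 20.9-fold lower with V4 (interval 14.4 to 31.5). KLF2, a zinc finger factor, had 1183 counts with V4 and 1654 with V1, a ratio of 0.705 (interval 0.654 to 0.761), and KLF6 had 4739 with V4 and 4976 with V1. Without the 4 response genes on this list, 1 of 13 was lower, a share below that of all kept genes, and the median was -0.28.

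Genes that ERK induces were not all lower. Of 7 kept ERK output genes, 1 was lower with V4 (PHLDA1), 0 were higher and 6 were neither, with a median of 0.12. Among all kept genes, 9.59% were lower and 7.83% higher. ETV5, an ETS factor that ERK induces, had 1043 counts with V4 and 917 with V1, a ratio of 1.12 (interval 1.03 to 1.23). EPHA2, an ephrin receptor, had 82 counts with V4 and 114 with V1, a ratio of 0.710 (interval 0.528 to 0.951). MAP kinase phosphatases likewise had 1 of 8 lower (DUSP5) and a median of 0.06. DUSP1, which acts mainly on the stress kinases JNK and p38, had 3569 counts with V4 and 3407 with V1, a ratio of 1.03 (interval 0.986 to 1.08). DUSP10, a phosphatase of the same stress kinases, had 981 counts with V4 and 861 with V1, a ratio of 1.12 (interval 1.02 to 1.23). The list of ERK feedback inhibitors had 3 kept genes. SPRED3 had 468 counts with V4 and 431 with V1, SPRY4 had 16 with V4 and 14 with V1, and neither was 1.5-fold apart. The third, IER3, was lower, but it is an ERK substrate and not an inhibitor of ERK, although it was on this list. This leaves only SPRED3 and SPRY4 as kept inhibitors, too few to describe the group. Under the filter, ERRFI1 had 3 counts with V4 and 8 with V1, SPRED2 had 6 with V4 and 5 with V1, and SPRED1 had 0 in both. SPRY1, SPRY2 and SPRY3 were not analysed here. EGR1, DUSP6, ETV5 and CCND1, all induced by ERK, were short of 1.5-fold, while PHLDA1 and DUSP5 were more than 1.5-fold lower with V4.

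Upstream of ERK, the EGF family ligands had 4 kept genes of 9, with 1 lower with V4, 1 higher and 2 neither. Among all kept genes, 9.59% were lower and 7.83% higher. EREG, the ligand epiregulin, had 5 counts with V4 and 193 with V1, 39.1-fold lower with V4 (interval 16.5 to 122). AREG, amphiregulin, the ligand gene with the most counts, had 3092 counts with V4 and 3859 with V1, a ratio of 0.790 (interval 0.754 to 0.829). The ligand counted as higher was BTC, betacellulin, at 14 counts with V4 and 8 with V1, where the interval of 0.676 to 4.75 holds 1. Of the 3 kept receptor genes, EGFR had 299 counts with V4 and 444 with V1 and stood just past the threshold, 1.51-fold lower with V4 (interval 1.30 to 1.75). With a prior count of 8, median-of-ratios scaling or no filter its log2 ratio was -0.58 and short of the threshold. ERBB3 had 2335 counts with V4 and 1973 with V1, a ratio of 1.17 (interval 1.10 to 1.24). The 10 kept genes of RAS, RAF, MEK and ERK had 0 lower and 3 higher with V4, with a median of 0.24. Among them BRAF had 56 counts with V4 and 35 with V1, a ratio of 1.58 (interval 1.02 to 2.48), and SOS1 had 16 counts with V4 and 8 with V1, where the interval holds 1.

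Around CCND1, 1 of 6 kept genes of the D cyclins, their kinases and inhibitors was lower with V4 and 0 were higher. The shares of all kept genes were 9.59% lower and 7.83% higher. CDKN2A, which encodes inhibitors of the cyclin D kinases and of MDM2, had 258 counts with V4 and 566 with V1, 2.22-fold lower with V4 (interval 1.92 to 2.59). RB1, the substrate of those kinases, had 2738 counts with V4 and 1927 with V1, a ratio of 1.40 (interval 1.32 to 1.49). CDK4 had 9146 counts with V4 and 9843 with V1, a ratio of 0.917 (interval 0.891 to 0.943). Around MYC, 0 of 7 kept genes of its family and partners were 1.5-fold apart. MXD4, an antagonist of MYC, had 657 counts with V4 and 808 with V1, a ratio of 0.802 (interval 0.722 to 0.890).

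**Figure D4:**
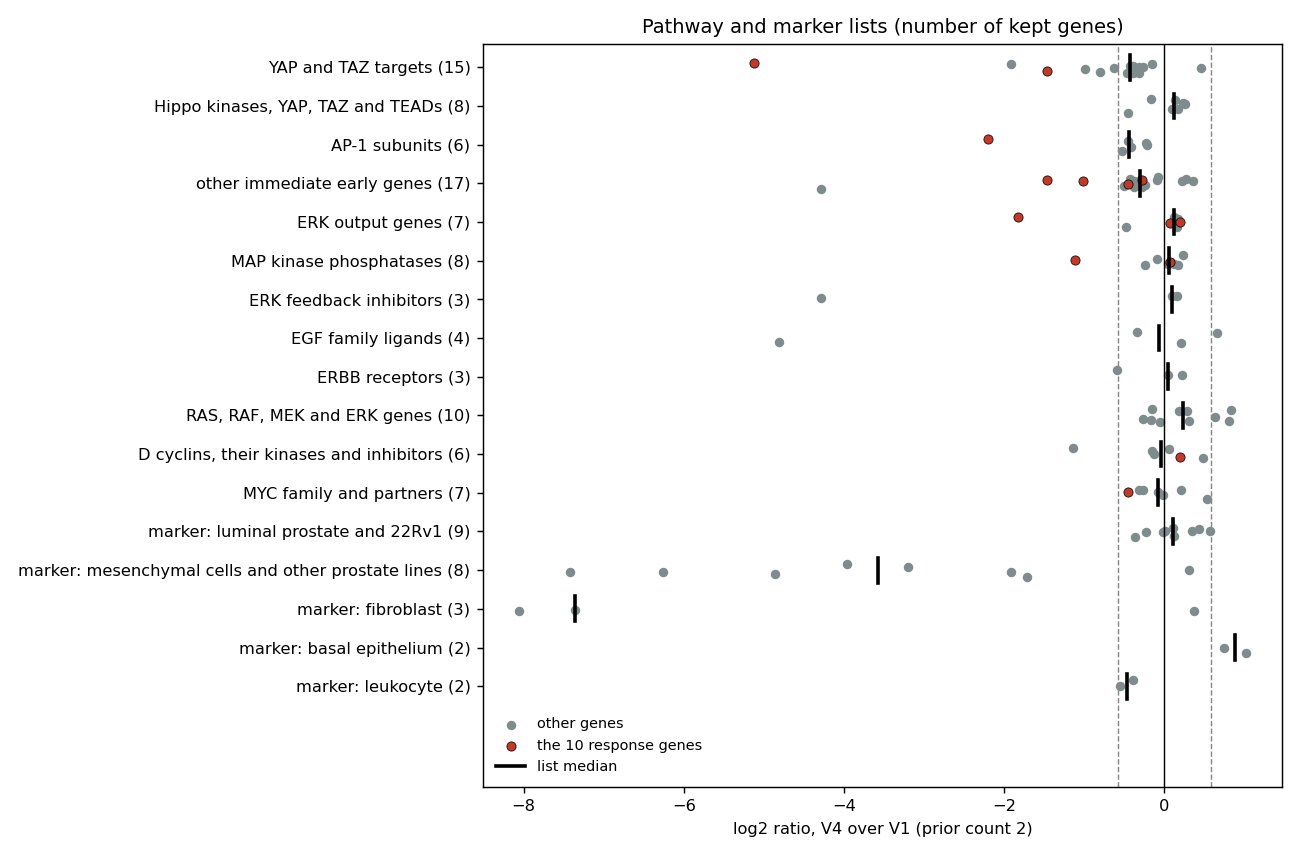
Log2 ratio, V4 over V1 with a prior count of 2, of each kept gene in the pathway and marker lists, with the 10 response genes in red, other genes in grey, list medians as black bars and dashed lines at 1.5-fold. YAP and TAZ targets, AP-1 subunits and immediate early genes have medians below 0 (-0.43, -0.44 and -0.31), ERK output genes and MAP kinase phosphatases have medians near 0 (0.12 and 0.06), and the list of genes of mesenchymal cells and some other prostate lines has the median -3.58.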

How the data were processed

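Poly(A) RNA of 22Rv1 cells was sequenced as 150 bp single-end reads, per the labels' protocols. The authors deposited whole-number read counts for each gene symbol, and hg19 is the build that the submitters' processing notes name. How reads were aligned and counted, on which strand, with which annotation and with what treatment of reads shared by several transcripts is not given in the sources. A technical replicate is mentioned in the design text, and how it enters the table is not given.

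Columns were tied to samples by name (columns not used: 1), so the empty vector entered no comparison, although both transfections had been planned against it. Of 15512 rows, 21 symbols on several rows were summed and 22 rows with a calendar date for a symbol were kept unnamed. Genes were kept where CPM averaged at least 1 across the V4 and V1 libraries. Libraries were scaled by TMM (edgeR 4.0.16, R 4.3.3; factors 0.988 for V4 and 1.01 for V1). Log2 ratios used a prior count of 2. Intervals are 95% Clopper-Pearson conditional binomial intervals (scipy 1.17.1) for ratios and exact Poisson intervals for levels, and cover counting error only. The procedure was tried on simulated data with counting error only and changes above 2-fold, scored at 2-fold. That trial does not test calls at 1.5-fold, nor variation between cultures, transfections or library preparations.

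The members and the 18 gene lists were chosen with earlier results of these data known, so no list was tested. Besides the members and MLPH, the text names for each list up to 4 kept genes with the largest absolute log2 ratio and the most abundant, as well as list genes under the filter or not analysed, and otherwise says that a gene was named after its values were seen. Some genes taken by that rule are not reported here. DESeq2 1.42.0 size factors were an alternative. Transcript lengths and exons came from GENCODE v29 (a transcript for 91.3% of kept genes) and promoters from RefSeq, both on GRCh38, so no coordinates were carried over to hg19.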

Additional observations from a re-analysis of the deposited data

How the results depend on the processing

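The 10 alternatives were scaling by median of ratios, by upper quartile or by total counts, no filter on low counts, a mean CPM of at least 10, prior counts of 0.5 and 8, a 2-fold threshold, a condition that the interval excludes 1, and thinning to the smallest total. The 2-fold threshold and the interval condition change only which genes are called. Ratios and medians under them equal the main ones by design, and are among the 98, 553 and 147 values given here. Of 98 values of the members' log2 ratios under the alternatives, 0 changed sign and 1 left its counting interval. FJX1 ranged from -5.79 to -3.86 and FOSL1 from -2.42 to -1.66, the other 8 within narrow ranges such as -1.50 to -1.45 for CYR61 and 0.04 to 0.08 for DUSP6. The count of 6 lower and 0 higher members was the same under each alternative but the mean CPM of at least 10. There, without FJX1 and FOSL1, 4 were lower and the median was -0.74, beside -1.07 over all 10, a change that follows from the fewer genes. The 848 lower and 692 higher genes among all kept became 2722 and 1757 with no filter, 162 and 139 at a mean CPM of at least 10, and 402 and 197 at 2-fold. Of 553 values for other genes taken by the naming rule, 0 changed sign and 5 left the counting interval. With a prior count of 8, BTC (0.45), SOS1 (0.57), BRAF (0.56), KRT5 (0.51) and EGFR (-0.58) were short of 1.5-fold, and EGFR also with median-of-ratios scaling and with no filter (-0.58 in both). Of 147 list medians, 1 changed sign: that of the EGF family ligands, which was 0.21 with no filter and -0.07 with the filter. The median of all kept genes was at most 0.04 below 0 (total counts, -0.04). Low counts limit FJX1 and FOSL1 most. No paired analysis was possible because each group has 1 library. Leaving out a replicate was not possible either.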
